A study of Mus musculus with 6 samples.

Results

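The genes described here are 10 genes of mouse liver that are known as targets of Wnt signalling or as markers of the hepatocytes around the central vein: Axin2, Rnf43, Znrf3, Lgr5, Tbx3, Glul, Oat, Slc1a2, Rhbg and Lect2. They were chosen by name, with earlier results of these data known, and each was found as 1 row among the 22488 genes of every count table. RNA of whole livers from male wild-type C57BL/6 mice, 6 to 8 weeks old, was sequenced after a fast of 16 h. In the control group (n = 3) an intraperitoneal injection of 200 µl of HBSS, a buffered salt solution, was given. In the LPS group (n = 3) the injection held lipopolysaccharide, an endotoxin from the outer membrane of Gram-negative bacteria, at a dose of 6 mg/kg. The treatment field of the controls reads as untreated, and no sampling time after injection is given in the sources used here. The labels do not say whether each library is a mouse of its own, so p-values measure the spread between these samples, which may be technical.

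Blood crosses the liver lobule from the portal to the central vein, and hepatocytes differ along that path. Endothelial cells of the central vein release Wnt ligands and R-spondin, which stabilise beta-catenin in the nearest hepatocytes, where it acts with TCF/LEF factors on its target genes. The pericentral hepatocytes are known for glutamine synthesis, bile acid synthesis and drug oxidation, and the periportal ones for urea and glucose production. Bulk liver RNA does not separate these zones. In such samples fewer cells of a type and less RNA per cell cannot be told apart.

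The control libraries held 12577993 to 20282004 counts and the LPS libraries 11488525 to 15437785. Levels are CPM, counts scaled by TMM to a common library size, with mean ± SD over n = 3. Changes are log2 fold changes of LPS over control, and each SE is the standard error from edgeR's quasi-likelihood test. Of counts from 1 to 10, between 90.2% and 92.2% were even in each library, against 48.5% to 51.5% of counts above 1000, so small counts mostly came in pairs, and counting intervals from the deposited counts may be too narrow. Hepatocyte markers were abundant in all libraries, with a summed level of 118186 to 130545 CPM in controls and 94100 to 126273 CPM in LPS livers. Of 9 tested hepatocyte markers 7 fell and 1 rose (median log2 fold change -0.54). Neutrophil markers rose in 5 of 5 tested (2.50 to 4.82 CPM summed in controls, 148 to 191 CPM in LPS livers, with Ly6g at 0 in control replicates 1 and 3), and 4 of 5 monocyte markers rose. Of 5 tested Kupffer cell markers 4 fell, and 6 of 8 stellate cell markers fell. Of 4 tested cholangiocyte markers 3 rose and Krt19 fell, with 19.4 to 32.9 CPM summed in controls and 117 to 139 CPM in LPS livers, of which Spp1 made up 17.5 ± 4.06 and 95.5 ± 7.61 CPM. Of 5 tested lymphocyte markers 2 fell and 0 rose. Beside these counts, 31.0% of all genes tested fell and 31.3% rose. The part of these cell types in the results below was not tested.

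Of the 10 genes, 6 fell in LPS livers, 1 rose and 3 did not pass the threshold of an adjusted p of 0.05. Axin2, Lgr5, Rnf43, Tbx3, Slc1a2 and Oat had log2 fold changes from -4.36 to -1.85, and Glul rose by 0.62. Znrf3, Rhbg and Lect2 had log2 fold changes between -0.14 and 0.11. In the same fit 31.0% of all 12078 genes tested fell and 31.3% rose. The LPS values of these 6 genes all lay below the control values, as did those of 33.4% of all genes tested. A fall of 2 or more on the log2 scale was found in 5 of the 10 genes and in 6.31% of all genes tested. The median log2 fold change of the 10 genes was -2.05, beside 0.01 for all genes tested. All 10 passed the filter on low counts.

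**Figure D1:**
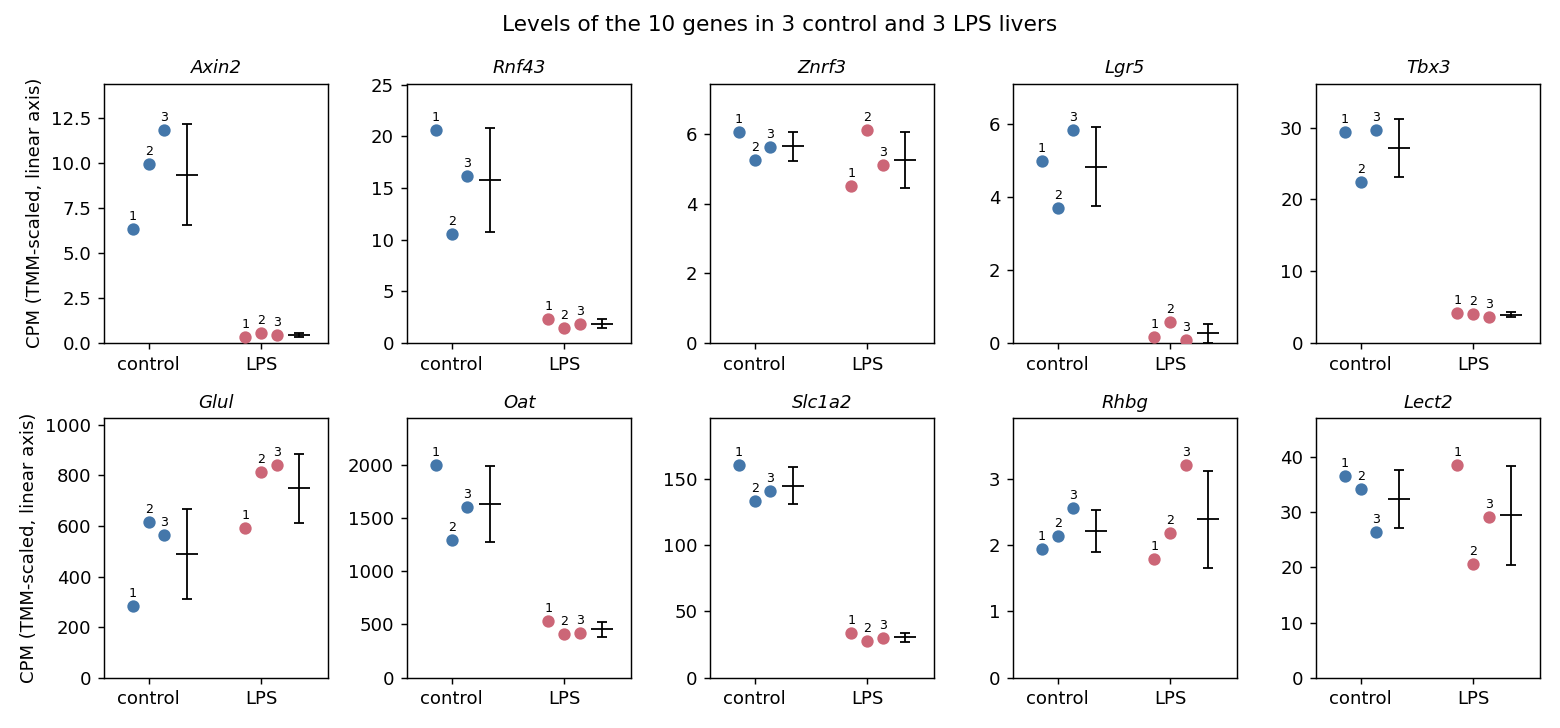
Level of each of the 10 genes in every liver, in CPM scaled by TMM on linear axes from 0, with points numbered by replicate and the mean ± SD beside them. The LPS points of Axin2, Rnf43, Lgr5, Tbx3, Oat and Slc1a2 all lie below the control points, and those of Znrf3, Glul, Rhbg and Lect2 overlap the controls.

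The feedback inhibitors of the pathway split. Axin2 (chromosome 11, 108917828 to 108950783 in GRCm38.p6), a scaffold of the complex that degrades beta-catenin and a widely used readout of Wnt signalling, stood at 6.32, 9.93 and 11.8 CPM in control replicates 1, 2 and 3. In LPS replicates 1, 2 and 3 it stood at 0.341, 0.563 and 0.428 CPM. The highest LPS value was thus far under the lowest control value, and the LPS mean was 4.75% of the control mean. Axin2 had the lowest log2 fold change of the 10 genes (-4.36, SE 0.38, adjusted p = 2.971e-07), at rank 76 from the lowest among the 12078 genes tested. The LPS group held 18 Axin2 counts in all against 469 in controls, a 21.3-fold difference per scaled count (95% counting interval 13.3 to 36.2). With counts halved and rounded up the interval was 11 to 47.2. Neither interval covers the spread between livers.

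Rnf43 and Znrf3 are related membrane ubiquitin ligases that remove Frizzled receptors from the cell surface and thereby dampen Wnt signalling. Rnf43 (chromosome 11, 87663087 to 87735539) measured 20.6, 10.5 and 16.2 CPM in control replicates 1, 2 and 3 and 2.30, 1.48 and 1.85 CPM in the LPS replicates. It was lower in every LPS liver than in any control (log2 fold change -3.07, SE 0.30, adjusted p = 8.586e-07). Znrf3 (chromosome 11, 5276329 to 5444847) measured 6.08, 5.25 and 5.64 CPM in controls and 4.52, 6.12 and 5.13 CPM in LPS livers. Here the groups overlapped, and the log2 fold change was -0.10 (adjusted p = 0.742) with a 95% interval of -0.63 to 0.43. Per kilobase of exon and within each library, Rnf43 was 2.41 to 4.07 times the level of Znrf3 in controls and 0.291 to 0.613 times in LPS livers. The order of this gene pair was therefore opposite in every control and every LPS library, whatever the scaling between libraries.

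Lgr5 (chromosome 10, 115450314 to 115587780), a receptor for R-spondins and a marker of stem cells and of hepatocytes next to the central vein, measured 4.99, 3.70 and 5.84 CPM in control replicates 1, 2 and 3. In LPS livers it measured 0.171, 0.563 and 0.0713 CPM, from 2, 8 and 1 counts. Its fitted change was -4.10 (SE 0.54, adjusted p = 1.759e-05), -5.27 without LPS replicate 2 and -3.63 without LPS replicate 3, so its size is less certain than its direction. The group totals of 231 and 11 counts differed 17.1-fold per scaled count (95% counting interval 9.40 to 34.8), and with counts halved and rounded up the interval was 7.03 to 43.9. Tbx3 (chromosome 5, 119670534 to 119684724), a T-box repressor downstream of beta-catenin in hepatocytes, measured 29.5, 22.5 and 29.6 CPM in controls. Its LPS values of 4.18, 4.08 and 3.56 CPM were close together and all below the controls (log2 fold change -2.78, SE 0.19, adjusted p = 2.483e-08). Antisense genes overlap exons of Axin2, Tbx3 and Slc1a2, and the use of strand in counting is not stated in the sources used here. Coding genes overlap exons of Glul, Oat and Rhbg, and these had 3 to 12 counts (Teddm2), 196 to 704 counts (Fgfr2) and 0 counts (Gm38392) per library.

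The genes of nitrogen handling did not move together. Glul (chromosome 1, 153899929 to 153909723), glutamine synthetase, which fixes ammonia that escapes the urea cycle, measured 285, 614 and 566 CPM in control replicates 1, 2 and 3. In LPS replicates it measured 591, 814 and 841 CPM. The lowest LPS liver lay below the highest control, and control replicate 1 stood well under the other controls. Glul rose (log2 fold change 0.62, SE 0.23, adjusted p = 0.0340), but the call ended with 1 library left out in 3 of the 6 cases. It stood at 0.34 (adjusted p = 0.104) when control replicate 1 was dropped, at 0.56 (adjusted p = 0.0906) when LPS replicate 2 was, and at 0.53 (adjusted p = 0.0878) when LPS replicate 3 was. In control replicate 1 Axin2 was the lowest of the controls too, whereas Oat, Rnf43 and Slc1a2 were at their highest there.

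Oat (chromosome 7, 132557475 to 132576398), ornithine aminotransferase, which turns ornithine toward glutamate, measured 1998, 1291 and 1608 CPM in controls and 534, 406 and 421 CPM in LPS livers. All LPS values lay below all control values (log2 fold change -1.85, SE 0.18, adjusted p = 7.381e-07). Slc1a2 (chromosome 2, 102658239 to 102790784), a sodium-coupled glutamate transporter of the plasma membrane, measured 160.5, 133 and 141 CPM in controls and 33.9, 27.7 and 29.6 CPM in LPS livers. Its groups did not overlap either, and its LPS mean was 21.0% of the control mean (log2 fold change -2.25, SE 0.13, adjusted p = 7.242e-09). Rhbg (chromosome 3, 88242874 to 88254739), an ammonia transporter of the Rh family, was scarce at 1.95, 2.14 and 2.57 CPM in controls and 1.79, 2.18 and 3.21 CPM in LPS livers. Its groups overlapped, and the 95% interval of its log2 fold change ran from -0.70 to 0.92 (0.11, adjusted p = 0.809). A change of moderate size in either direction is therefore not excluded.

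Lect2 (chromosome 13, 56529734 to 56548559), a secreted protein made by hepatocytes, measured 36.5, 34.3 and 26.4 CPM in controls and 38.6, 20.7 and 29.1 CPM in LPS livers. The LPS range enclosed the control range, and the fitted change of -0.14 (SE 0.20, adjusted p = 0.551) had a 95% interval of -0.57 to 0.28.

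**Figure D2:**
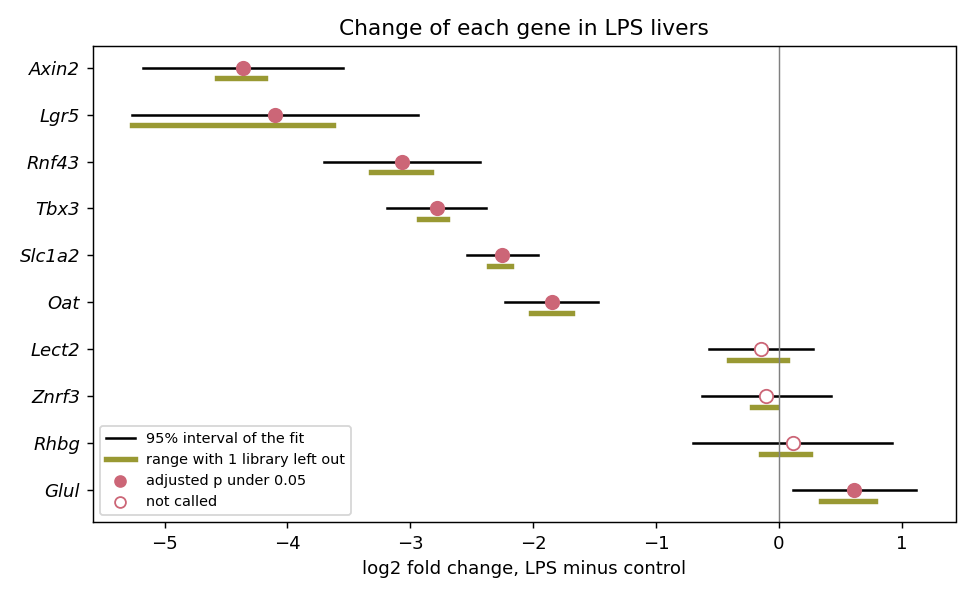
Log2 fold change of each gene, LPS minus control, with the 95% interval of the fit (black line) and, below it, the range of values when each library in turn is left out (olive bar). Filled points passed the adjusted p of 0.05, and the genes run from Axin2 at -4.36 to Glul at 0.62.

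Compared per kilobase of annotated exon, the order of the genes differed between the groups. In controls Oat was the most abundant (692 ± 150 CPM per kb), followed by Glul (147 ± 53.5), Lect2 (35.3 ± 5.76), Slc1a2 (11.0 ± 1.07), Tbx3 (4.11 ± 0.616), Rnf43 (2.40 ± 0.770), Axin2 (1.70 ± 0.506), Rhbg (1.15 ± 0.163), Znrf3 (0.717 ± 0.0525) and Lgr5 (0.472 ± 0.105). The control values of Rnf43 overlapped those of Axin2, and those of Axin2 overlapped those of Rhbg. In LPS livers Glul came first (225 ± 41.4 CPM per kb) with Oat (192 ± 29.6) overlapping it, and Rhbg (1.24 ± 0.378) and Znrf3 (0.666 ± 0.102) stood above Rnf43 (0.286 ± 0.0631) and Axin2 (0.0806 ± 0.0203). Glul per kilobase was 0.101, 0.338 and 0.250 times Oat in control replicates 1, 2 and 3 and 0.786, 1.42 and 1.42 times Oat in LPS replicates. Against Slc1a2, Glul was 7.01 to 18.2 times as abundant in controls and 68.8 to 116 times in LPS livers. These ratios do not depend on the scaling between libraries, and their groups did not overlap.

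**Figure D3:**
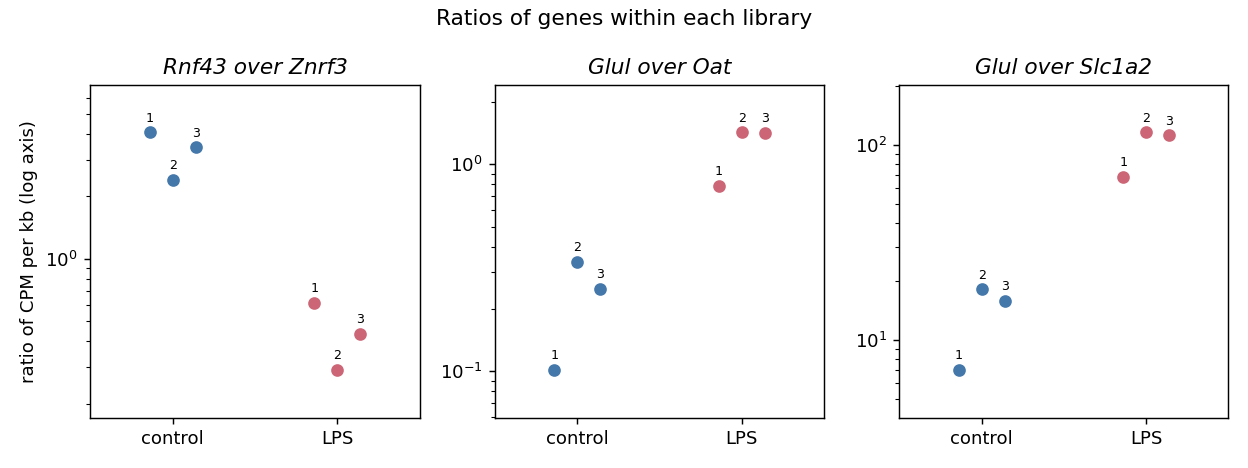
Ratio of CPM per kb of 2 genes within each library, on log axes, with points numbered by replicate. Rnf43 over Znrf3 was lower in every LPS library, and Glul over Oat and Glul over Slc1a2 were higher in every LPS library, than in any control.

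The RefSeq promoter table (GRCm38.p6) held windows of 300 bases around a start site for 6 of the 10 genes: Glul, Slc1a2, Oat, Rnf43, Axin2 and Lect2. They were searched on both strands for the TCF/LEF site in its 7-base forms, of which the first is CTTTGAA, the second CTTTGAT, the third CTTTGTA and the fourth CTTTGTT. Of the genes, Slc1a2 and Lect2 held 1 match each, and 16.9% of all 32851 windows held at least 1. Both matches were CTTTGAT on the opposite strand, beginning 207 bases before the start site in Slc1a2 and 32 bases before it in Lect2. Of the genes with a match, Slc1a2 fell and Lect2 did not pass the threshold. Of those without one, Axin2, Oat and Rnf43 fell and Glul rose. So few windows cannot show whether a match goes with a change, which was not tested. Rnf43 had a window at each of 2 starts. The windows of Axin2 and Slc1a2 and the second of Rnf43 lie at starts inside the gene, 2521, 48199 and 36810 bases from its outermost start, and that of Lect2 lies 21 bases inside. For the pair with a match and for Axin2, the gene with the lowest fold change, the longest stretch without an annotated exon before the start site is shown. The stretches run 5′ to 3′ on the gene's strand with matches in capitals, and that of Slc1a2 stops short of its start site. They cover chr2:102706188-102706355 (plus strand), chr13:56548539-56548788 (minus strand) and chr11:108920099-108920348 (plus strand).
Slc1a2: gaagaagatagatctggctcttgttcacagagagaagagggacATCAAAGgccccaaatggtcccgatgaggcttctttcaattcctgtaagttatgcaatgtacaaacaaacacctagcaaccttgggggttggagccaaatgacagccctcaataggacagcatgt
Lect2: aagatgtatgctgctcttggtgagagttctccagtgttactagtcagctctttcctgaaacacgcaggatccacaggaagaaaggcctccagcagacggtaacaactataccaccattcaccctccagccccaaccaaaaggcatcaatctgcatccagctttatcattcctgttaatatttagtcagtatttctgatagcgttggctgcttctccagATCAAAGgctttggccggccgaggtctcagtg
Axin2: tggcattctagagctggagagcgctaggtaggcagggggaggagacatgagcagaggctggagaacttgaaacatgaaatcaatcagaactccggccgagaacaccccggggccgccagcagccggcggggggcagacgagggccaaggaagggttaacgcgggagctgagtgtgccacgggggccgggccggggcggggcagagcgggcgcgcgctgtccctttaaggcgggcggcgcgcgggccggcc
A match is a description of these letters and no proof of a site, and distant elements were not searched.

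Of the Wnt ligands, R-spondins and secretion factors, few were expressed enough to test. Of 25 such genes 8 were tested, of which 0 rose and 3 fell (median log2 fold change -0.79). Those 3 falls are near the 31.0% of all genes tested that fell, and 31.3% of all genes tested rose. Wnt2, a ligand of central vein and sinusoidal endothelium, went from 4.54 ± 0.736 to 0.967 ± 0.464 CPM, below all controls in every LPS liver (log2 fold change -2.22, SE 0.40, adjusted p = 0.000283). Wls, the carrier needed to secrete Wnt proteins, fell by 1.18 on the log2 scale, and Wnt5b, with the highest CPM of the list, fell by 0.85. Rspo3, the R-spondin of the central vein, had 4.79 ± 0.822 CPM in controls and 6.27 ± 2.25 CPM in LPS livers (log2 fold change 0.38, SE 0.30, adjusted p = 0.293). Wnt9b, the other ligand known from central vein endothelium, stood at -0.93 on the log2 scale (SE 0.55, adjusted p = 0.153), and Wnt4 (-0.72) and Wnt5a (0.50) did not pass the threshold either. Of the 25, 15 had a count in any library.

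Some endothelial markers changed in the same libraries, in which 31.0% of all genes tested fell and 31.3% rose. Of 7 tested sinusoidal endothelial markers 6 fell and 1 rose, with a summed level of 264 to 281 CPM in controls and 135 to 230 CPM in LPS livers. Of 6 central vein endothelial markers, a list that shares Wnt2, Wnt9b and Rspo3 with the ligands, 2 fell and 1 rose, with a summed level of 22.6 to 32.2 CPM in controls and 35.9 to 56.1 CPM in LPS livers. The riser was Thbd, thrombomodulin, at 5.05 ± 0.671 CPM in controls and 33.7 ± 7.30 CPM in LPS livers. Without Thbd, a choice made after seeing the data, the list summed to 18.2 to 27.1 CPM in controls and 8.70 to 18.7 CPM in LPS livers, so the higher sum in LPS livers came from this gene. Their part in the fall of Wnt2 was not tested.

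Of 18 receptors and co-receptors 12 were tested, of which 6 fell and 2 rose (median log2 fold change -0.32). The shares over all genes tested were 31.0% that fell and 31.3% that rose. Lgr4, the R-spondin receptor of most hepatocytes, fell by 0.38 on the log2 scale (SE 0.12, adjusted p = 0.0164). The co-receptor Lrp5 fell (-0.58, SE 0.19, adjusted p = 0.0165), while Lrp6 had 83.6 ± 7.23 CPM in controls and 96.8 ± 17.2 CPM in LPS livers (adjusted p = 0.209). Of the 6 tested Frizzled receptors, Fzd6 rose (1.77) and Fzd1 (-1.04) and Fzd7 (-0.88) fell, while Fzd4 (0.36, adjusted p = 0.0547), Fzd5 (-0.27) and Fzd8 (-0.24) did not pass. Fzd1, Fzd7 and Fzd8 were named after their values were seen. Ror1, a Wnt5a receptor, rose from 1.91 ± 0.378 to 15.2 ± 1.52 CPM (log2 fold change 3.00, SE 0.24, adjusted p = 1.256e-07). Tspan12, a Frizzled co-receptor, fell from 156.5 ± 21.6 to 51.5 ± 2.11 CPM (-1.60, SE 0.13). Without control replicate 3 the receptors that fell numbered 3.

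The core transducers changed in both directions. Of 16 tested, 6 rose and 5 fell (median log2 fold change 0.24), close to the 31.3% and 31.0% of all genes tested. Ctnnb1, beta-catenin itself, went from 114 ± 3.29 to 70.5 ± 9.41 CPM (-0.69, SE 0.13, adjusted p = 0.000339). Of the complex that marks it for degradation, these rose: Axin1 from 21.3 ± 0.453 to 34.9 ± 3.39 CPM (0.71, SE 0.13), Gsk3b by 0.56 and Csnk1a1, which has the highest CPM of the list, by 0.62 on the log2 scale. Gsk3a rose too (0.54), and Btrc, the adaptor of the ubiquitin ligase that then binds beta-catenin, fell (-0.68, adjusted p = 0.00661), both named after their values were seen. Apc, another core component of that complex, stood at 0.10 (adjusted p = 0.643). Tcf7l2, the main TCF factor of hepatocytes, stood at 0.25 (adjusted p = 0.142), and the coactivator Bcl9l fell (-0.91, SE 0.13, adjusted p = 4.642e-05). Axin2 and its paralog Axin1 thus changed in opposite directions in the same livers.

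Among inhibitors of the pathway, Notum and Nkd1, feedback genes that beta-catenin is known to induce in pericentral hepatocytes, fell. Of 10 tested inhibitors 3 fell and 3 rose (median log2 fold change 0.33), near the 31.0% and 31.3% of all genes tested. Notum, a secreted enzyme that inactivates Wnt proteins, went from 19.1 ± 0.398 to 1.11 ± 0.0994 CPM (-4.10, SE 0.22, adjusted p = 3.182e-09). Nkd1, an inhibitor that binds Dishevelled, went from 3.15 ± 0.377 to 0.736 ± 0.237 CPM (-2.07, SE 0.43, adjusted p = 0.000804). The remaining changes were in Groucho-type corepressors, which bind TCF factors: Tle2 fell (-2.99), and Tle3 (2.04), Tle1 (0.39) and Tle4 (0.81), the last named after its value was seen, rose. The secreted Dkk3 had a log2 fold change of 0.78 (adjusted p = 0.0647).

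Most other pericentral genes and most periportal genes fell. Of 20 tested further pericentral hepatocyte genes 13 fell and 4 rose (median log2 fold change -0.94), and of 22 tested periportal genes 14 fell and 4 rose (median -1.26). Among all genes tested 31.0% fell and 31.3% rose (median 0.01). On the pericentral side Cyp2e1, an alcohol- and drug-oxidising cytochrome, went from 7421 ± 566 to 3197 ± 155 CPM (-1.21, SE 0.14), and Cyp7a1, which controls the rate of bile acid synthesis, fell by 7.26 on the log2 scale. Nr1i3, the constitutive androstane receptor, fell from 30.8 ± 6.93 to 1.57 ± 0.932 CPM (-4.26, SE 0.30), and Cpox, an enzyme of heme synthesis, fell by 2.69 on the log2 scale. Cyp1a2 rose from 280.3 ± 21.7 to 383 ± 62.9 CPM (0.45, SE 0.14, adjusted p = 0.0134), as did Cyp2a5 (1.10), Slc13a3 (1.68) and Gstm3 (1.30), of which the latter 3 were chosen with their values known. The cytochromes and glutathione transferases have near-identical relatives, and how shared reads were assigned is not stated in the sources used here.

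On the periportal side Cps1 and Gls2, which use and release ammonia, fell. Glul was called higher in the same livers, but its groups overlapped and the call was lost when some single libraries were left out. Cps1, which starts the urea cycle, went from 4860 ± 1403 to 389.7 ± 94.9 CPM (-3.64, SE 0.23, adjusted p = 1.505e-08), and Gls2, the liver glutaminase, from 217 ± 58.8 to 32.6 ± 5.53 CPM (-2.73, SE 0.19). Ass1 (-1.45) and the adhesion protein Cdh1 (-1.40) fell, and Arg1, which releases urea, rose from 1807 ± 502 to 3271 ± 280 CPM (0.86, SE 0.18). Etnppl, a phospho-lyase, had the lowest log2 fold change of the periportal list (-5.81), Pck1, which starts gluconeogenesis, fell by 1.45, and Sdsl, a serine dehydratase-like enzyme, rose by 3.03 on the log2 scale. The 2 other risers, Fbp1 (1.01) and Sds (1.13), were named after their values were seen.

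**Figure D4:**
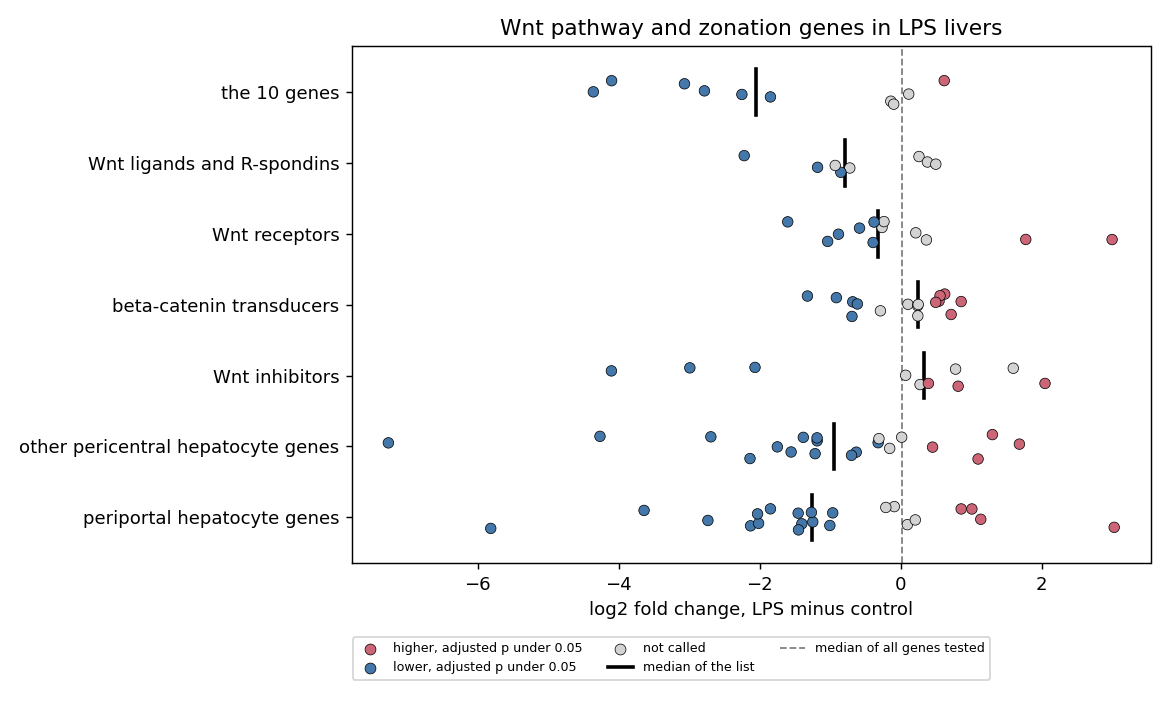
Log2 fold change, LPS minus control, of every tested gene in the 10-gene group and in the lists of Wnt pathway and zonation genes, coloured by call, with the median of each list (black bar) and of all genes tested (dashed line, 0.01). The 10 genes have the lowest median of the lists shown (-2.05).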

How the data were processed

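RNA-seq of 6 livers was analysed from tables of counts per gene. The authors deposited raw counts, whole numbers without normalization, in 1 fixed-width table for each library (symbol, Entrez identifier, count). Per the submitters' processing notes, bcl2fastq 2.0, HISAT2, StringTie, DESeq2, limma and the build mm10 were used, without the role of each. The sources used here do not state the counting tool, annotation, strand setting or treatment of shared reads. The column headings of control and LPS tables carry different runs of sample codes, whose meaning is not given, so a batch that follows the codes cannot be told apart from the treatment.

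Groups and replicate numbers came from the sample titles. Genes were named by Entrez identifier in GRCm38.p6 (20722 rows, 98.99% of counts). Genes were compared in R 4.3.3 with edgeR 4.0.16 (TMM, filterByExpr with minimum count 10 and minimum total 15, quasi-likelihood F test, 2-sided), with Benjamini-Hochberg adjustment over all 12078 genes tested and a threshold of 0.05. SEs were taken from the fold change and its F statistic, and 95% intervals from the SE and the fit's degrees of freedom. Counting intervals are exact binomial. Exon lengths are unions over GENCODE M21 exons. Lists are described by counts and medians only. Every library differed from the others of its group beyond counting error (chi-square per degree of freedom at least 12.3).

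The 10 genes and the lists were chosen with earlier results of these data known. Named genes are the 10, 25 fixed by name and, per list, the 3 of lowest adjusted p and the one of highest CPM. Of the hepatocyte list, Tf matched no row. Alternatives were library totals, RLE size factors, DESeq2 1.42.0, limma-voom (limma 3.58.1), no filter, the replicate number as a block, each library left out and, added after seeing the data, halved counts. Same-numbered libraries correlated, as deviations from group means, at -7.448e-04, 0.104 and 0.0352, and unlike-numbered ones at -0.121 to 0.0741. With 3 libraries per group these values cannot decide whether the numbers mark pairs. The main fit did not take them as pairs, and the block was kept as an alternative. The method was tested on simulated data with 200 changed genes, where 11588 genes were tested for LPS against control. There edgeR recovered 20.3% of 1.5-fold, 71.4% of 2-fold and 89.2% of 4-fold changes, with 5.69% of its calls false. In the data far more genes were called (31.3% higher and 31.0% lower), and simulated small counts did not come in pairs. These rates may therefore not hold for the data.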

Additional observations from a re-analysis of the deposited data

How the results depend on the processing

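Under 13 other settings, 125 of 130 values of the 10 genes kept their direction and their side of the threshold. Axin2, Lgr5, Rnf43, Tbx3, Slc1a2 and Oat fell under each of the 13. With 1 library left out Glul ran from 0.34 to 0.79 on the log2 scale, and the count of the 10 genes that rose from 0 to 1. Lect2 and Rhbg, never called, ran from -0.40 to 0.064 and from -0.15 to 0.25, with the sign turned without LPS replicate 2 and without LPS replicate 3, respectively. The cause was not tested. Of 208 counts of lists and of all genes, 203 stayed within 1.5 times. The receptors that fell ran from 3 to 6 with 1 library left out, and 1 Wnt ligand rose without the filter on low counts, where more genes were tested. Adding the replicate block to the edgeR fit changed no call of the 10 genes. Axin2 stayed at -4.36 on the log2 scale and Glul moved to 0.68. The block narrowed the SE of Glul to 0.15 from 0.23, and its adjusted p went to 0.000671 from 0.0340. These libraries cannot decide whether the replicate numbers mark pairs, so the smaller value holds only if they do. Under scaling by library totals alone, the median of all genes tested was -0.05. Axin2, Lgr5, Rnf43 and Rhbg had 45 or fewer counts in every LPS library, which limits the precision of their changes.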

Other observations

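Among Wnt pathway genes too scarce for the test, a few had counts mostly in 1 group, and they were picked because of these values. Dkk4, a secreted Wnt inhibitor, was at 0 counts in each control library and had 6, 10 and 6 counts in LPS replicates 1, 2 and 3. Counts were halved here, since small counts mostly came in pairs, and the control group was set to a floor of 3 halved counts. Against that floor the LPS level was 4.49-fold higher, a single value without an interval and not a lower bound. Wnt11 had 4, 0 and 0 counts in control replicates 1, 2 and 3 and 6, 8 and 19 in LPS replicates. Wnt6 had 2, 4 and 2 counts in controls and 0 in every LPS library. These differences were not tested in the main comparison.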
